A study of Homo sapiens with 8 samples.

Results

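The loci described here are those of 5 human genes of basal epithelial or mesenchymal cells, TP63, KRT5, ZEB1, SNAI2 and VIM, in a luminal breast cancer line given a progestin. Members were the progesterone receptor (PR) sites and the chromatin regions that overlap hg19 windows holding each gene with 50 kb on each side, 999 kb in all. The windows held 30 merged PR sites of 43784 in the whole series. Of single lists they held 0 of 844 sites in unstimulated cells, and with the progestin R5020 22 of 22973 after 5 min, 16 of 25872 after 30 min, 13 of 24436 after 60 min and 11 of 23841 after 360 min. The windows were fixed by gene position and not by any measured value, though the 5 genes were chosen with earlier results of these data known.

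The cells were T47D-MTVL, a PR-positive luminal line with a reporter driven by the promoter of mouse mammary tumour virus, held in charcoal-treated and then serum-free medium before any hormone. PR was precipitated from unstimulated cells (0 min) and from cells given 10 nM R5020 for 5, 30, 60 or 360 min, and 3 further samples of unstimulated cells gave regions of H3K4me1, H3K4me3 and RNA polymerase II. Each of the 8 groups holds 1 sample of 1 cell line, so differences between times are unreplicated and carry no p-value. The lists carry positions only. Read depth, peak height and the threshold for calling are not given in the sources used, and a site missing from a list may still have been bound. RNA levels were not analysed here, and whether these genes were expressed cannot be read from the lists.

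TP63 encodes a transcription factor of the p53 family that maintains basal epithelial cells, and KRT5 encodes a keratin filament protein of the same cells. ZEB1 and SNAI2 (also called Slug) encode zinc-finger repressors that switch off E-cadherin during epithelial-mesenchymal transition, and VIM encodes vimentin, the filament protein of mesenchymal cells. Luminal cells express little of these genes as a rule, and progestins are known to give rise to a small KRT5-positive fraction in luminal breast cancer lines. PR is a hormone-activated transcription factor that binds inverted repeats of a short hexamer. H3K4me1 marks enhancers and the flanks of promoters, and H3K4me3 marks active or poised promoters.

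The sequences just upstream of 4 of the gene starts are shown because the marks and PR sites at the gene starts differ between the loci. They are from RefSeq on GRCh38.p14, cover the 250 bases before the gene start, and run 5′ to 3′ along the gene. The KRT5 sequence is chromosome 12, 52520395 to 52520644, minus strand. The TP63 sequence is chromosome 3, 189631139 to 189631388, the VIM sequence is chromosome 10, 17227991 to 17228240, and the ZEB1 sequence, the most upstream of 7 starts, is chromosome 10, 31318167 to 31318416, all plus strand. Capitals mark the PR hexamer AGAACA on either strand (TGTTCT when read on the other).
KRT5: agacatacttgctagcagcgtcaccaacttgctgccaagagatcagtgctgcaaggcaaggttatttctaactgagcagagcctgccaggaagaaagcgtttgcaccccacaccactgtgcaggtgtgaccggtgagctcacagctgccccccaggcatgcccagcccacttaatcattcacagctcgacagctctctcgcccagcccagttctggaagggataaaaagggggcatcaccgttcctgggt
TP63: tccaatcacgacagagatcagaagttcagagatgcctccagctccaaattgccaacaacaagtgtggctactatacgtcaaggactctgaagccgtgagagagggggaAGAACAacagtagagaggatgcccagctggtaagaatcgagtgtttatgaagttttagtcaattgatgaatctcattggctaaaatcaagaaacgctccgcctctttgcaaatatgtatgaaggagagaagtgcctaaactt
VIM: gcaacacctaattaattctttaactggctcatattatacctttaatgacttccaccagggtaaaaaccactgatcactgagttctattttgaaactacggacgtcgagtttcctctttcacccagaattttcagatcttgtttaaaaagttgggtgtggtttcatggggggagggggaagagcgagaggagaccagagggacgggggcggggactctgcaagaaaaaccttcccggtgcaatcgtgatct
ZEB1: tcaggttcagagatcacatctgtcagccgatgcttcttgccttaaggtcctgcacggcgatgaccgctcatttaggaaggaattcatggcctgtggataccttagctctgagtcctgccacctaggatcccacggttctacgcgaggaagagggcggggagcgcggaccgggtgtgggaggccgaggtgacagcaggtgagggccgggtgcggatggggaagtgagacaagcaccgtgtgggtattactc

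The hexamer was found once in the TP63 sequence, from 142 to 137 bases before the start. In KRT5 the only match in the RefSeq window, which runs on to 50 bases past the start, lay from 32 to 37 bases after the base at the start, within this 30-base stretch.
KRT5 start: cctgctgagctcTGTTCTctccagcacctc
No match was found in the VIM window or in the 7 ZEB1 windows. Among all 35116 RefSeq windows of this length, 14.8% hold the hexamer on either strand. The full repeat, GNACA and TGTNC with 3 bases between them, was in none of the windows of these genes and in 0.39% of all windows. A match is a match of letters, not a bound site, and the absence of one says nothing about PR. The PR sites themselves lie on hg19, and their own sequences were not analysed here.

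Among the 5 loci, merged PR sites were most numerous at TP63 (20) and KRT5 (6) and few or missing at VIM (3), ZEB1 (1) and SNAI2 (0). At 5 min, though, KRT5 held no more listed sites than VIM or ZEB1. In unstimulated cells no window held a listed site. With R5020 the TP63 window held 18, 11, 8 and 4 sites at 5, 30, 60 and 360 min, and the KRT5 window held 1, 3, 3 and 6. The VIM window held 2, 2, 1 and 0 sites at the same times, the ZEB1 window 1, 0, 1 and 1, and the SNAI2 window 0 throughout. The site counts of the TP63 and KRT5 windows thus ran in opposite directions over the time course, while the lists as a whole stayed between 22973 and 25872 sites. The KRT5 window also holds parts of the keratin cluster beside KRT5.

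**Figure D1:**
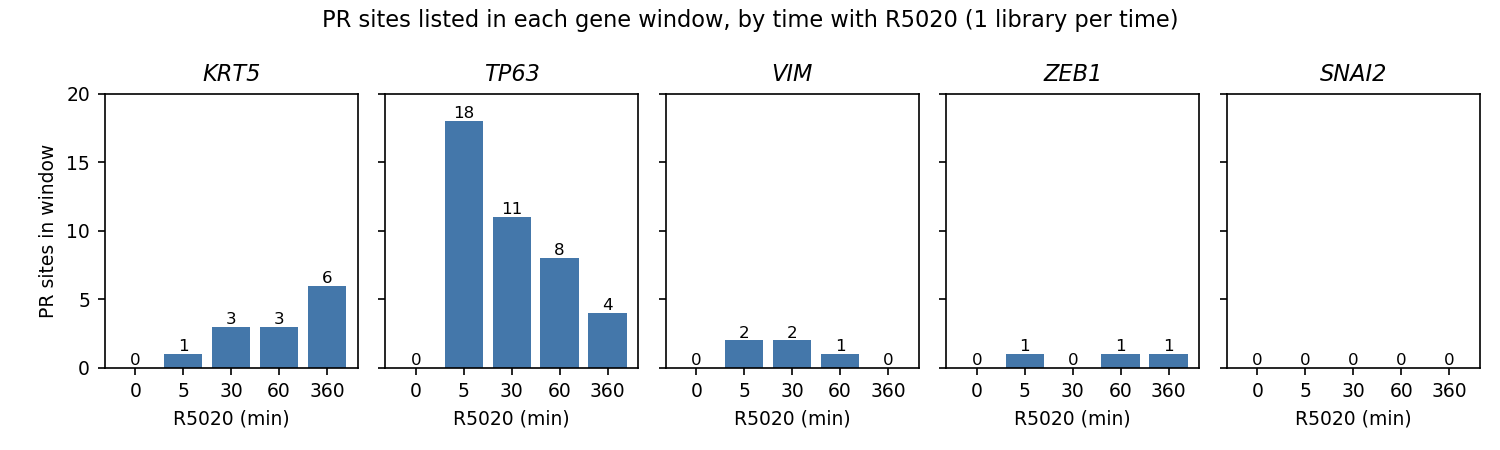
PR sites listed in each gene window (vertical axis, count) by minutes with R5020 (horizontal axis, not to scale in time), with 1 library per time. The TP63 bars are highest at 5 min (18) and lowest with hormone at 360 min (4), those of KRT5 are highest at 360 min (6), and the SNAI2 panel is empty.

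Window length matters to these counts. At the whole-genome density of the 60 min list, 8.05 sites per Mb, the 367 kb TP63 window would hold 2.95 sites, the 311 kb ZEB1 window 2.5 and the 104 kb SNAI2 window 0.837. TP63 at 60 min had 21.8 sites per Mb, against 10.5 on chromosome 3 as a whole. KRT5 had 28.0 per Mb, against 9.74 on chromosome 12, and VIM 9.09 and ZEB1 3.22, against 9.58 on chromosome 10. The count of 0 at SNAI2 is thus within 1 site of the mean density, and the counts of ZEB1 and VIM are within 2 sites of it. At 360 min the TP63 window, with 10.9 sites per Mb, had come close to the 10.1 of its chromosome.

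The 13 sites at 60 min were 184 to 338 bp wide with a median of 258 bp, and 12 of them were narrower than the 313 bp median of the whole list. At the other times the medians lay closer together, at 255 bp in these windows against 269 bp at 5 min, 266.5 against 285 bp at 30 min and 265 against 265 bp at 360 min. Of the 30 merged sites, 5 (16.7%) were listed at all 4 times with hormone, against a background of 23.0% of all merged sites. Another 16 (53.3%) were listed at 1 time alone, against 43.2% of all merged sites. These were 11 at 5 min (36.7%, background 16.8%) and 3 at 30 min (10.0%, background 8.52%). At 60 min there were 0 (background 6.08%) and at 360 min 2 (6.67%, background 10.1%). Of the 13 sites at 60 min, 10 were also listed at 5 min (background 53.7%), 11 at 30 min (background 77.6%) and 9 at 360 min (background 70.6%).

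TP63 spans 267 kb of the long arm of chromosome 3, in the window from 189299000 to 189666000, and gives long forms from its first promoter and the shorter deltaN forms, which prevail in basal cells, from an internal promoter. The window held 20 of the 30 merged sites, 15 inside the gene as the window bounds it, 2 upstream and 3 downstream. RefSeq gives the gene a span 33.5 kb longer, so the placing of sites near its ends depends on the bounds. At 5 min, 14 of the 18 listed sites were inside the gene. The sites gathered in the middle of the gene, from 125 to 148 kb past its start, where a stretch of 23.7 kb (chromosome 3, 189474015 to 189497679), singled out after the sites were seen, held 8 sites at 5 min, 5 at 30 min, 3 at 60 min and 2 at 360 min.

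Of the 20 merged TP63 sites, 4 were listed at every time with hormone. That share was near the 20.8% of chromosome 3 and the 23.0% of all merged sites. The 4 sites lay at 125, 135 and 175 kb past the gene start, inside the gene, and at 310 kb, which is past the gene's 3′ end. At 60 min the site at 175 kb ran from 189523987 to 189524288 and the one past the gene from 189659287 to 189659558. The site at 135 kb, from 189484236 to 189484499 at 60 min, lay next to, and outside, a 245 bp RNA polymerase II region (189483787 to 189484032), 1 of 2 such regions in the window. At 125 kb the 60 min list gives a pair of sites, 189474073 to 189474303 and 189474363 to 189474701, that the 360 min list gives in part as 1 site, from 189474015 to 189474487. The other 60 min sites were 45.9 kb upstream of the gene (189302963 to 189303259, also listed at 5 and 30 min) and at 313 kb (189661879 to 189662133, also at 5 and 30 min) and 313.8 kb (189662687 to 189662871, also at 30 min), past its 3′ end.

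Of the 20 merged TP63 sites, 10 were listed at 5 min alone, against 16.8% of all merged sites and 21.7% of those on chromosome 3. Another 2 (10.0%) were listed at 30 min alone, against 8.91% on chromosome 3. None was listed at 60 or 360 min alone, against 5.74 and 8.13% on chromosome 3. One of the 10, from 189347706 to 189347977, was the only PR site close to the gene start as the window bounds it, 1.16 kb upstream of that start. The internal promoter of the deltaN forms was not located, so distances from it are not given. Of the 18 sites at 5 min, 7 (38.9%) were listed again at 60 min, against 57.4% of the whole 5 min list and 49.5% of its chromosome 3 sites. At 360 min 4 of the 18 (22.2%) were listed, against 50.6% of the whole list and 44.3% on chromosome 3. Every one of the 4 sites at 360 min had been listed at 5, 30 and 60 min. Fewer sites were listed late on chromosome 3 in general too, with 2329, 2297, 2069 and 2005 sites at 5, 30, 60 and 360 min, a smaller change in proportion than the 18, 11, 8 and 4 at TP63. The sites listed at 5 min alone were 153 to 371 bp wide (median 243.5 bp), against a median of 234 bp over all sites of that class.

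The TP63 window was rich in H3K4me1 and held few H3K4me3 or RNA polymerase II regions. It held 43 H3K4me1 regions, 117 per Mb against 42.4 on chromosome 3 and 24.1 in the genome, and they covered 26.5% of the window against 12.6% of the chromosome and 7.64% of the genome. PR was listed at some time in 11 of the 43, all of them already at 5 min. The share of all H3K4me1 regions that hold a PR site was not computed, so this count has no background. H3K4me3 and RNA polymerase II had 1 and 2 regions here, 2.72 and 5.45 per Mb against 9.58 and 11.04 on chromosome 3. These counts are small, and the difference from the chromosome was not tested. The single H3K4me3 region of the window (189652738 to 189653189, 451 bp) lay past the 3′ end, and no such region touched the gene as the window bounds it. All 8 sites at 60 min were in H3K4me1 regions, and none was in an H3K4me3 or RNA polymerase II region. In the whole 60 min list 48.2% of sites were in H3K4me1, 5.12% in H3K4me3 and 8.92% in RNA polymerase II regions, and the H3K4me1 share on chromosome 3 was 57.5%. H3K4me1 also covered 7 of the 10 sites that only the 5 min list gives, against a background of 36.2%.

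**Figure D2:**
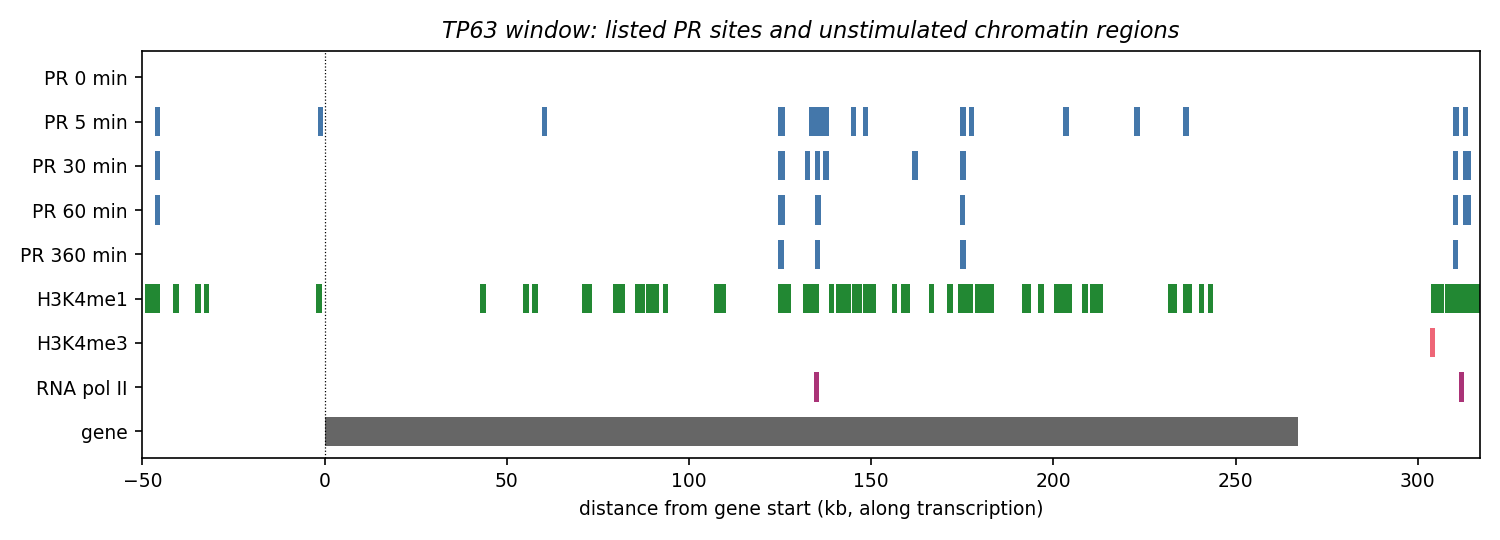
Listed PR sites at each time (blue) and H3K4me1, H3K4me3 and RNA polymerase II regions of unstimulated cells in the TP63 window, by distance in kb from the gene start; the grey bar is the gene, and features too narrow to see are drawn at a minimum width. There are 18 PR sites at 5 min and 4 at 360 min, and those 4 lie in H3K4me1 regions.

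KRT5 lies in the type II keratin cluster on chromosome 12 (window 52858000 to 52965000), with KRT6A and KRT6C on the side of its 3′ end and KRT71 and KRT74 on the other. It held 6 merged PR sites, 3 upstream and 3 downstream of the gene and none within it. The only site at 5 min, 13.96 kb past the gene start on the KRT6A side (52900938 to 52901153), was listed at all 4 times with hormone. A site 12.5 kb past the start was listed at 30 and 360 min, and a site 25.8 kb upstream at 30, 60 and 360 min. The near edge of KRT71 is 23.5 kb from KRT5 on the upstream side, so the site 25.8 kb upstream lies past that edge. The lists do not tell which gene of the cluster a site belongs to.

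A site beside the KRT5 start appeared late. It was listed at 60 min from 52915102 to 52915331 and at 360 min from 52915131 to 52915357, and it lay within 1 kb upstream of the gene as the window bounds it, a bound good to about 1 kb. The 360 min list alone gave 2 more sites, 1.28 kb upstream (52916157 to 52916397) and 26.5 kb past the start (52888349 to 52888703). These are 2 of the 6 merged sites of the KRT5 window (33.3%), against 10.1% of all merged sites listed at 360 min alone. The site 26.5 kb past the start lies close to KRT6A, whose near edge is 21.3 kb from the 3′ side of KRT5. Both sites near the start lay in 1 H3K4me1 region of 4923 bp that spans the start (52912265 to 52917188). The window held 9 H3K4me1 regions, which covered 21.4% of it against 12.5% of chromosome 12, and no H3K4me3 or RNA polymerase II region. Chromosome 12 had 9.54 H3K4me3 and 15.7 RNA polymerase II regions per Mb. At those densities a window of 107 kb would hold few of either. Of the 6 sites at 360 min, 4 (66.7%) were in H3K4me1 regions, against 45.1% of the whole 360 min list. Of the same 6, 1 (16.7%) had been listed at 5 min, against 48.7% of that list. At 60 min 3 of the 6 had been listed, against 72.6%.

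ZEB1 spans 211 kb of chromosome 10 (window 31558000 to 31869000). It had 1 PR site, 80.8 kb past the start and inside the gene, listed at 5 min (31688760 to 31688976), 60 min (31688702 to 31688971) and 360 min (31688731 to 31688953) but not at 30 min. That site was in none of the 3 kinds of chromatin region, as were 50.4% of the whole 60 min list. Next to the gene start, where the antisense RNA gene ZEB1-AS1 also lies, there was an H3K4me3 region of 969 bp (31606995 to 31607964) and beside it an H3K4me1 region of 2172 bp (31608100 to 31610272), with no RNA polymerase II region and no PR site at any time. H3K4me1 covered 1.59% of the ZEB1 window, against 10.1% of chromosome 10, the lowest cover of the 5 windows.

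SNAI2, on chromosome 8 (window 49780000 to 49884000), had no PR site in any list. Its window held 3 H3K4me1 regions, of which 1 spans the gene start (49832281 to 49834967), and they covered 8.34% of the window against 8.41% of the chromosome. There was no H3K4me3 and no RNA polymerase II region. Chromosome 8 had 6.37 H3K4me3 and 8.46 RNA polymerase II regions per Mb, so at those densities a window of 104 kb would hold few of either.

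VIM, on chromosome 10 (window 17220000 to 17330000), was the only gene of the 5 with PR in a region of all 3 kinds. A site 2.25 kb past the gene start was listed at 5 min (17272120 to 17272368), 30 min (17272139 to 17272382) and 60 min (17272128 to 17272386), and not at 360 min. It lay in an H3K4me3 region of 796 bp (17272035 to 17272831), an RNA polymerase II region of 1065 bp (17271794 to 17272859) and an H3K4me1 region of 5431 bp. VIM-AS1, an antisense RNA gene, overlaps VIM here, and the lists do not tell which of the pair a region belongs to. Sites were also listed at 30 min alone, 5.64 kb past the start, and at 5 min alone, 31.9 kb past it, both outside the 3 kinds of region. A second pair of H3K4me3 (17242901 to 17243959) and RNA polymerase II regions lay upstream, on the side of the neighbour TRDMT1, and held no PR site.

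**Figure D3:**
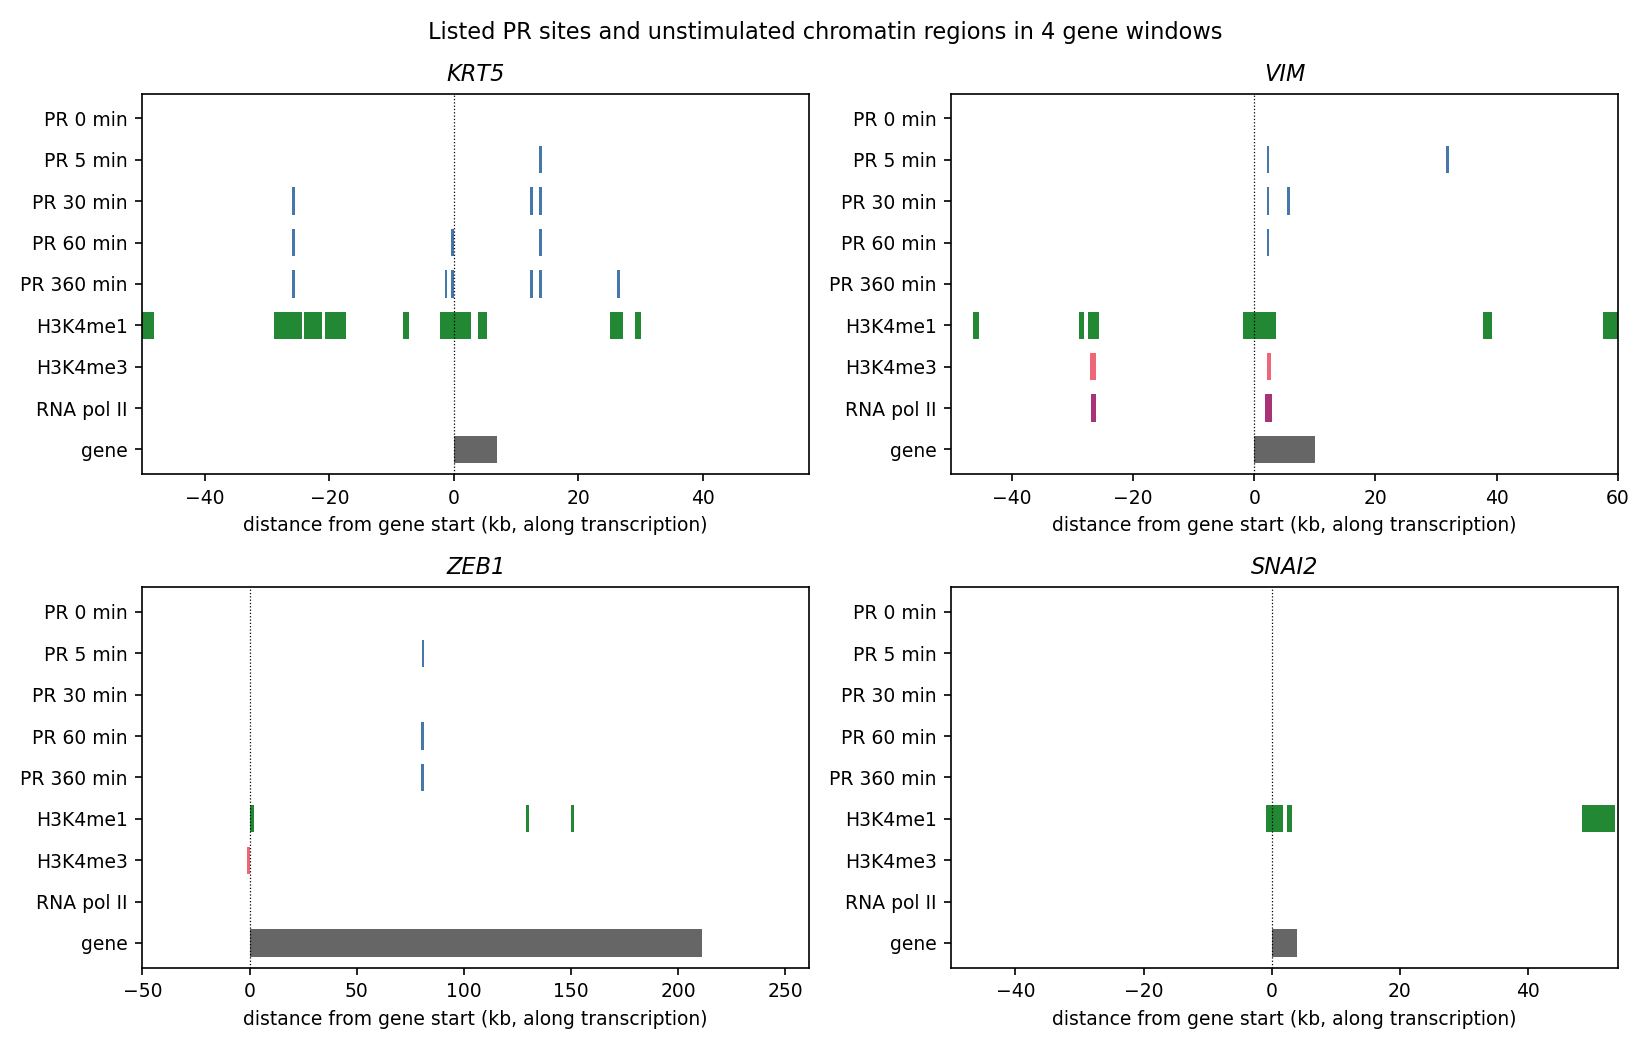
Listed PR sites and unstimulated chromatin regions in the KRT5, VIM, ZEB1 and SNAI2 windows, by distance in kb from the gene start along transcription; colours and minimum widths are those of the TP63 map. Sites next to the KRT5 start are listed at 60 and 360 min, VIM has PR within all 3 kinds of region, ZEB1 has H3K4me3 at its start with PR 80.8 kb away, and SNAI2 has H3K4me1 alone.

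Across the 5 loci, 11 of the 13 sites at 60 min (84.6%) overlapped H3K4me1 regions, against a background of 48.2%. The 11 sites lay in only 8 regions, 3 of them in 1 TP63 region of 12202 bp and 2 in another of 3483 bp, so they are not independent and no interval is given. TP63 supplied 8 of the 11 sites, and without it 3 of 5 sites (60.0%) overlapped. Chromosome 3, with TP63, had more H3K4me1 regions per Mb (42.4) than the genome (24.1), and the part of that in the share was not tested. One of the 13 sites, that of VIM, was in an H3K4me3 and an RNA polymerase II region.

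Nucleosome occupancy at these sites was taken from the authors' deposited table, which gives the normalized number of micrococcal nuclease (MNase) reads per 60 min PR site in R5020-treated and in unstimulated cells, 1 value each. MNase cuts between nucleosomes, so reads mark DNA that was protected. At the VIM site the authors' deposited table gives 19 reads with R5020 and 71 in unstimulated cells, a log2 difference of -1.87. Only 1.12% of the 24436 sites had a lower value, and the median of the 685 sites in all 3 kinds of region was -1.15.

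At the KRT5 site beside the gene start the authors' deposited table gives 42 reads with R5020 and 109 in unstimulated cells (log2 -1.37, lower than at all but 5.01% of sites). The other KRT5 sites had 56 with R5020 and 76 in unstimulated cells 13.96 kb past the start (log2 -0.44), and 101 with R5020 and 124 in unstimulated cells 25.8 kb upstream (log2 -0.29). The reads at the start site were thus lower with R5020 by more than at its neighbours within the window. A drop to 50% or less (log2 of -1 or lower) was found at these KRT5 and VIM sites, 2 of 13, a share near the 13.0% of all sites.

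At TP63 the R5020 and unstimulated values lay closer together. In the authors' deposited table the 8 sites had 55 to 154 reads with R5020 (median 92.5) and 55 to 178 in unstimulated cells (median 124.5), with a median log2 difference of -0.23. The median was -0.26 over the 60 min sites of chromosome 3 and -0.51 (quartiles -0.83 and -0.21) over the 9517 sites that lie, as all 8 TP63 sites do, in H3K4me1 regions alone. The TP63 median thus stood nearer to 0 than that of their chromatin class, within its quartiles and near the upper one. The lowest was -0.58, at the site from 189661879 to 189662133, with 72 reads with R5020 and 108 in unstimulated cells. The pair of sites at 125 kb differed in direction, with 86 reads with R5020 and 69 in unstimulated cells in the first (log2 0.32), and 154 with R5020 and 178 in unstimulated cells in the second (log2 -0.21). The site at 135 kb had 55 reads in both conditions. Upstream of the gene the authors' deposited table gives 125 reads with R5020 and 141 in unstimulated cells (log2 -0.17), and at 175 kb it gives 99 with R5020 and 141 in unstimulated cells (log2 -0.51). Past the 3′ end the sites at 310 and 313.8 kb had 107 and 73 reads with R5020, against 157 and 87 in unstimulated cells (log2 -0.55 and -0.25).

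At the ZEB1 site the authors' deposited table gives 42 reads with R5020 and 52 in unstimulated cells (log2 -0.30). Over all 13 sites 11 had fewer reads with R5020 (84.6%, background 78.0%), 1 had more (7.69%, background 20.9%) and 1 had the same number. Their median log2 difference was -0.30, against -0.37 over the whole table, so that relative to the table's median they stood at 0.065. The counts of lower and higher values are near the background of all sites. Of the 13 sites, the 11 in H3K4me1 regions, that of VIM among them, had a median of -0.29, against -0.51 over all sites in H3K4me1 regions alone, a difference with no test, since the sites of a locus are not independent. How the authors scaled the MNase libraries to each other is not known from the sources used, and a change of scale would move all these values together.

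**Figure D4:**
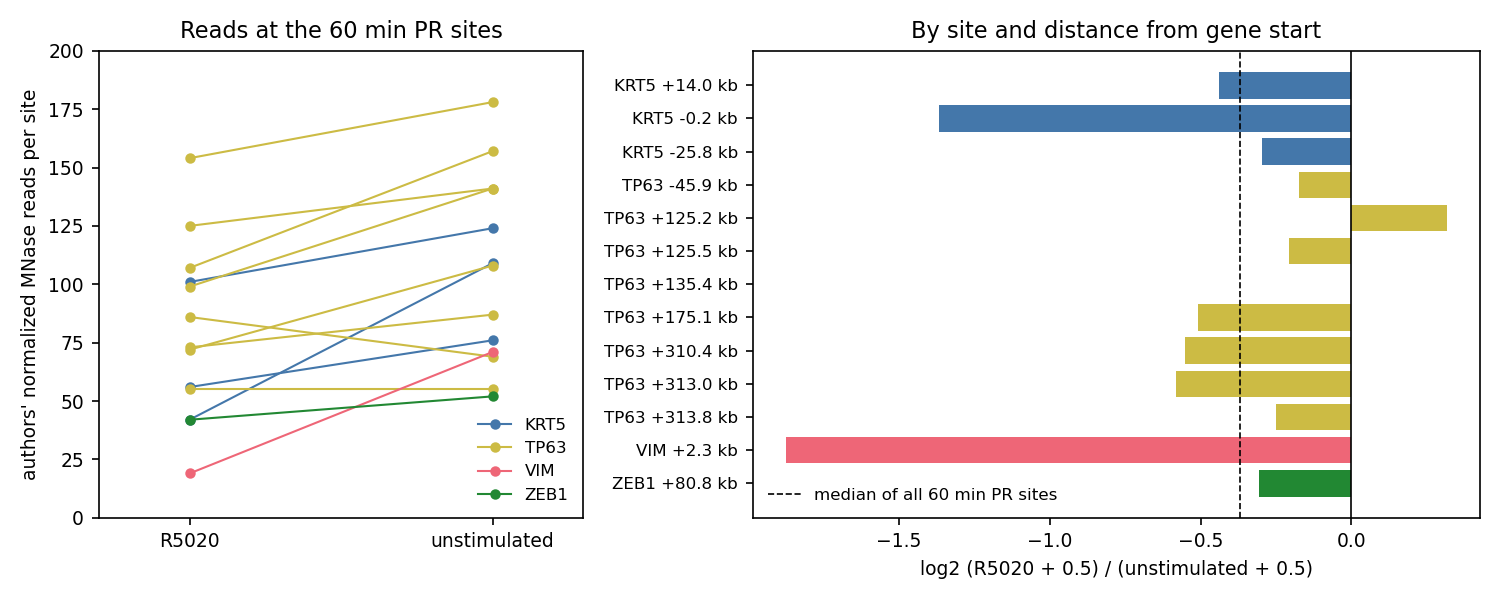
Left, the authors' normalized MNase reads at each of the 13 PR sites listed at 60 min, with R5020 and in unstimulated cells joined by a line; right, the log2 ratio of R5020 to unstimulated reads (0.5 added to both) per site, labelled by gene and distance from the gene start, with the median of all 60 min sites dashed. The VIM site (-1.87) and the KRT5 site beside the gene start (-1.37) are the lowest, and 1 TP63 site is above 0.

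Other genes of the same kinds were counted with the same window rule. At 60 min the 5 further basal windows (KRT14 and KRT17, keratins; CDH3, P-cadherin; EGFR, a growth factor receptor; ITGB4, an integrin of hemidesmosomes) had 12.9 to 56.6 PR sites per Mb, highest at KRT14. The 6 further mesenchymal windows were those of CDH2 (N-cadherin), FN1 (fibronectin), ACTA2 (smooth muscle actin) and SNAI1, TWIST1 and ZEB2 (transcription factors of the transition). These windows had 0 to 25.3 per Mb, lowest at TWIST1. KRT5 (28.0) and TP63 (21.8) thus lay within the range of the basal windows, and VIM, ZEB1 and SNAI2 within that of the mesenchymal ones. TP63 lay within the mesenchymal range as well. Of these 11 windows 10 held an H3K4me3 region and 8 an RNA polymerase II region, against 3 and 2 of the 5 loci described here. The luminal windows of FOXA1, GATA3, KRT19, CDH1 and KRT8 with KRT18 had 12.7 to 132 sites per Mb. That range overlaps the basal and mesenchymal ones and takes in both KRT5 and TP63. Each luminal window held H3K4me3 and RNA polymerase II regions. Windows of KRT14, KRT17 and KRT19 overlap one another, as do those of CDH3 and CDH1, and no test was made between the kinds.

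**Figure D5:**
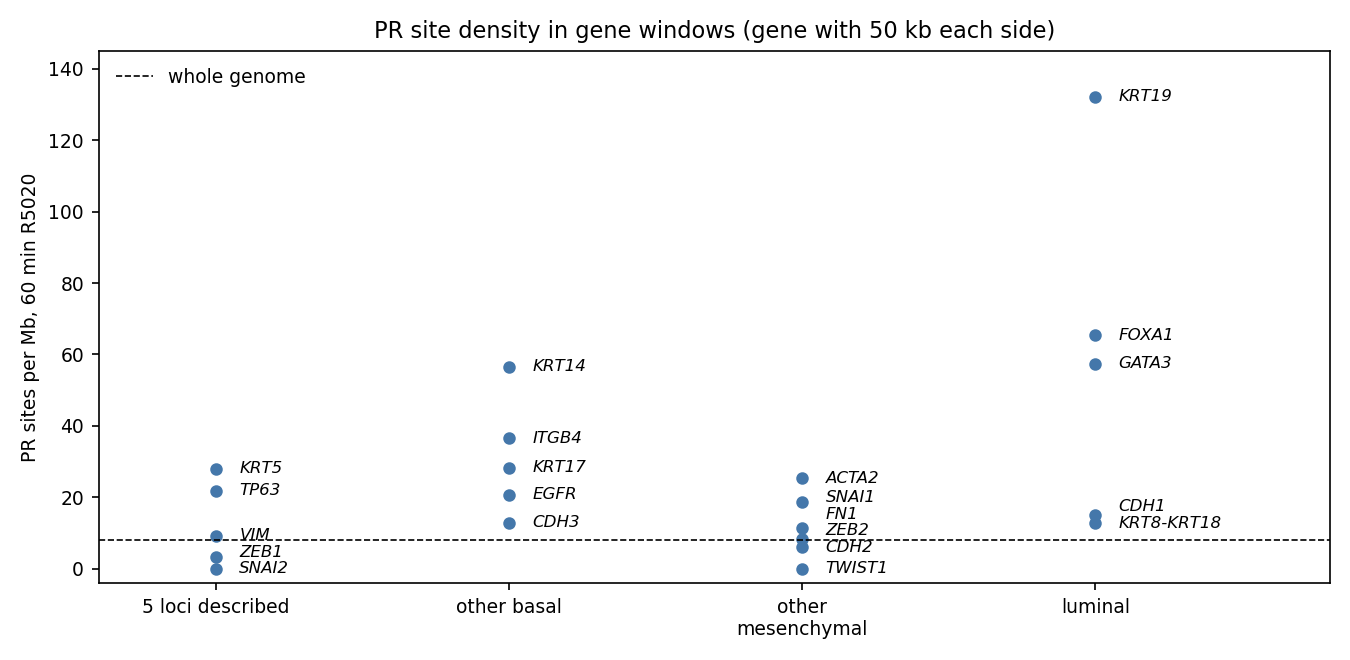
PR sites per Mb at 60 min of R5020 (vertical axis) in the windows of the 5 genes described and of other basal, mesenchymal and luminal genes, 1 point per gene window; the dashed line is the whole-genome density (8.05). KRT5 and TP63 lie above the line, VIM near it, and ZEB1 and SNAI2 below it.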

How the data were processed

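The deposited lists give PR sites and chromatin regions as hg19 positions, with the build taken from the submitters' processing notes. The sources used here name no aligner, peak caller, threshold or depth. Per the file headers, the authors' deposited MNase values, handled as a score rather than raw counts, are whole numbers that they normalized per 60 min PR site, and no sample of this series is tied to them. The ratio column made by the authors runs unstimulated over R5020; it was not used, and log2 of R5020 over unstimulated reads was computed here after adding 0.5 to both.

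A site belongs to a window, a region or another list if they overlap by 1 bp or more; overlapping sites of the 5 PR lists were merged. The 60 min list and the MNase table hold the same 24436 sites. Gene bounds are the window bounds less 50 kb and carry an error of about 1 kb, apart from TP63, to which RefSeq gives a span 33.5 kb longer. Whole-genome density used the last listed base of each chromosome, 3035 Mb in all. Groups hold 1 sample each, so no test between groups was made.

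The hg19 spans of the 16 windows of other genes were set by hand. All 16 lie on the chromosome that RefSeq (GRCh38.p14) gives, and 13 have a length within 3 kb of its gene; RefSeq also gives TP63 a longer span, by 33.5 kb. Promoter sequences matched 4 of the 5 genes. Every PR site at 60 min is named, with, in TP63, those listed at all 4 hormone times and near the gene start. The 5 genes, the other genes and the alternatives were chosen with earlier results of these data known. The interval overlaps were checked on simulated lists. Python 3.11.15, NumPy 2.4.6, pandas 2.3.3, SciPy 1.17.1 and Matplotlib 3.10.9 were used.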

Additional observations from a re-analysis of the deposited data

How the results depend on the processing

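The share of 60 min sites in H3K4me1 regions stayed between 60.0 and 91.7% over all 10 alternatives tried (overlap by midpoint or within 1 kb, wider H3K4me1 regions, other windows, each locus left out). The count of 13 sites at 60 min became 8 with 25 kb on each side, 16 with 100 kb, and 1 with the wider 50% of the list. With the wider 50% of each list, 1 merged site in place of 5 was listed at all 4 times with hormone. The median MNase log2 difference of -0.30 was -0.44 without TP63, and 0.065 after the median over all 60 min sites was subtracted; it lay between -0.37 and -0.28 otherwise. The causes were not tested, beyond the fewer sites that such settings leave.

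In alternatives chosen after seeing the data, TP63 had fewer sites at 360 than at 5 min, and KRT5 more, under each window, midpoint and merging rule. With the wider 50% of each list TP63 had 3 at 360 min and 9 at 5 min, a difference of -6, and KRT5 had 3 at 360 min and 0 at 5 min, a difference of 3. No paired analysis was possible because each group holds 1 sample. Without depths or heights, a list's length and a locus's count at 1 time cannot be set against the spread between libraries.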

Other observations

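Some windows counted only as company to the 5 loci held values of their own. The ZEB2 window, of another E-cadherin repressor, had 0, 0, 2, 2 and 3 PR sites at 0, 5, 30, 60 and 360 min and no region of any of the 3 chromatin lists. The TWIST1 window had 3 sites at 5 min, 1 at 30 min and 0 at 60 and 360 min, with 1 H3K4me3 region and no RNA polymerase II region. The windows of KRT14 and KRT17, which overlap, share the only PR site listed before hormone among the 11 further basal and mesenchymal windows. KRT14, the keratin that pairs with KRT5, had 8, 6, 6 and 4 sites at 5, 30, 60 and 360 min. H3K4me1 covered 67.6% of the KRT14 window, against 21.4% of that of KRT5. The KRT14 window also overlaps that of the luminal gene KRT19, which H3K4me1 covered to 82.4%.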
